A study of Mus musculus with 11 samples.

Results

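Liver RNA was measured for 9 genes of de novo fatty acid synthesis (Acly, Acss2, Acaca, Acacb, Fasn, Me1, Elovl6, Scd1 and Thrsp) in db/db mice given an antibody against the glucagon receptor. The genes were a chosen list, and probes of the array were assigned to them through their RefSeq transcripts. This gave 16 of 39429 gene probes and 9 of 15974 genes tested. Of these, 8 are enzymes, and Thrsp encodes a small protein of lipogenic tissue with no known enzyme activity of its own. All 9 genes, and all 16 probes, were well above background in the liver channel on every array, so no member was lost to the filter on dim probes.

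Both groups were db/db mice, which lack a working leptin receptor and are obese and diabetic, so neither group stands for a lean liver. One group received PBS (5 samples, numbered 1, 3, 4, 5 and 6) and the other 5 mg/kg of the monoclonal antibody 3c7.v44 (6 samples, numbered 1 to 6). Age, sex and length of treatment are not given in the sources used here. Each 2-colour Agilent array set liver RNA, in Cy5, against a commercial pool of mouse RNA in Cy3, and values are given as log2(Cy5/Cy3). Whether samples with different numbers are different mice is not stated, and p-values cover the spread among these samples alone. In whole liver fewer cells of a type and less RNA per cell cannot be told apart.

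The 11 arrays lay on 3 slides, each scanned once, and the number of arrays limits the precision. Slides 1 and 3 held 2 PBS and 2 antibody arrays each, and slide 2 held PBS replicate 5 and antibody replicates 2 and 5. On every slide the PBS samples were at positions 1 and 2 and the antibody samples at positions 3 and 4, so that position and treatment cannot be told apart. Cy5 was well above background for 66.2% to 77.1% of spots, and none was saturated. Of the 10 hepatocyte markers none passed the test on the ratio, where 14.6% of all 15974 genes did. With Cy5 alone 2 rose and 1 fell, where 14.3% of genes passed. With slide as a block, or without slide 2, 1 marker rose, where 2795 and 3480 of all genes passed. The summed Cy5 signal of the 10 markers was 21.22 to 21.27 (log2) in PBS and 21.22 to 21.30 with antibody.

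De novo synthesis builds fatty acids from acetyl-CoA in the liver cytosol. Citrate or acetate is turned into acetyl-CoA, a biotin carboxylase makes malonyl-CoA, fatty acid synthase joins these units into palmitate with NADPH, and elongase and desaturase steps then make the longer and unsaturated products. In liver the pathway is known to be raised by insulin through SREBP-1c and by glucose through ChREBP, and lowered by glucagon and cAMP, and in obese db/db mice it is known to run high.

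The promoters of these genes are shown because 7 of the 9 genes rose together and because known regulators of the pathway bind near the start of transcription. RefSeq (GRCm38.p6) windows of 300 bases, from 250 before to 50 after the start, were matched for 8 members in 9 windows, with 2 for Me1, and none was matched for Scd1. Both strands were searched for the CCAAT box (CCAAT), the GC box (GGGCGG), a sterol regulatory element (TCACNCCAC), the E-box CACGTG and the cAMP response element TGACGTCA, and matches are in capitals below. The Fasn window is chr11:120824498-120824797, minus strand, the Thrsp window chr7:97417501-97417800, minus strand, and the Acly window chr11:100527951-100528250, minus strand. The other genes lie on chromosome 11 (Acaca), 5 (Acacb), 2 (Acss2), 3 (Elovl6), 9 (Me1) and 19 (Scd1).
Fasn: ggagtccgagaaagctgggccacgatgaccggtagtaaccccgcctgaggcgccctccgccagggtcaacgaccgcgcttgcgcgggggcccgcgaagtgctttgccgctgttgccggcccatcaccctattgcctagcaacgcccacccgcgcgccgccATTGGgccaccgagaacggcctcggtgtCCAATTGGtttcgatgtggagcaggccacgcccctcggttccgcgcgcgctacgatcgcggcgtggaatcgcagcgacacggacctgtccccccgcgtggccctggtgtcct
Thrsp: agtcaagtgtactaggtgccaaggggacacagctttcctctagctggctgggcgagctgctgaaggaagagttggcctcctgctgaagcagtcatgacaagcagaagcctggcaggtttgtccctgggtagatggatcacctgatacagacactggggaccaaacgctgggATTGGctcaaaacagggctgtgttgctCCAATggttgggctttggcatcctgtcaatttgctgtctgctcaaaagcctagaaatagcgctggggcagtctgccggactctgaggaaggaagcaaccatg
Acly: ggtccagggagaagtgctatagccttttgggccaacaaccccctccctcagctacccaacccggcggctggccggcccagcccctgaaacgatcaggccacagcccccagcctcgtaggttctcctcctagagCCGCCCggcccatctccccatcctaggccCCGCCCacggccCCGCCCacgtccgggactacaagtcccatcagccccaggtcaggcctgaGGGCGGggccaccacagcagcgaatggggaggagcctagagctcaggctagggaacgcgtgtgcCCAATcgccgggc
Fasn and Thrsp share an arrangement, a CCAAT box on the reverse strand followed by another on the forward strand, with 28 bases between their first bases in Fasn (at -90 and -62 from the start) and 27 in Thrsp (at -79 and -52). The rate of this arrangement over all windows was not counted, and Thrsp was not among the 7 genes that rose. In Fasn the forward box overlaps another match on the reverse strand. A CCAAT box was found in 6 of the 8 members (Fasn, Acacb, Acly, Acss2, Me1 and Thrsp), against 37.4% of 32851 promoter windows. A GC box was found in 3 of 8 (Acly with 4 matches, Acss2 and Me1), against 35.7%. Each is a count of genes set against a share of windows, and Me1 had 2 windows. The CCAAT box of Me1 lay in a different window from its GC boxes, and that of Acly lay after the start, at 37. The letters searched for the sterol regulatory element, the E-box and the cAMP response element were in none of the 9 windows, against 1.24%, 7.15% and 1.79% of all windows. The CCAAT box and the GC box did not occur in the windows of Acaca and Elovl6.

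Of the 9 genes, 7 rose with the antibody (Acly, Acaca, Acacb, Fasn, Me1, Elovl6 and Scd1), none fell, and Acss2 and Thrsp did not pass (limma, 6 against 5 arrays, two-sided, Benjamini-Hochberg adjusted p under 0.05 over all genes). Over all 15974 genes 8.98% rose and 5.66% fell, or 14.6% in either direction. The share of changed genes that rose was 61.3%, against 21.3% with median centring in place of loess, 45.2% with the scanner software's own ratio and 52.8% with Cy5 alone. In these alternatives 7, 6 and 8 members rose and none fell, where 581, 977 and 1211 of all 15974 genes rose. The median log2 difference was 1.65 over the members and 0.013 over all genes tested. At least 2-fold rises were seen in 6 members, against 0.394% of all genes. These genes also lay among the most variable on the arrays, and the SD within groups of 8 of the 9 was above that of 96.0% of genes, with Thrsp at percentile 81.3. The groups did not overlap in 1 member, Acacb, against 3.95% of all genes with the antibody arrays wholly above and 6.64% in either direction.

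**Figure D1:**
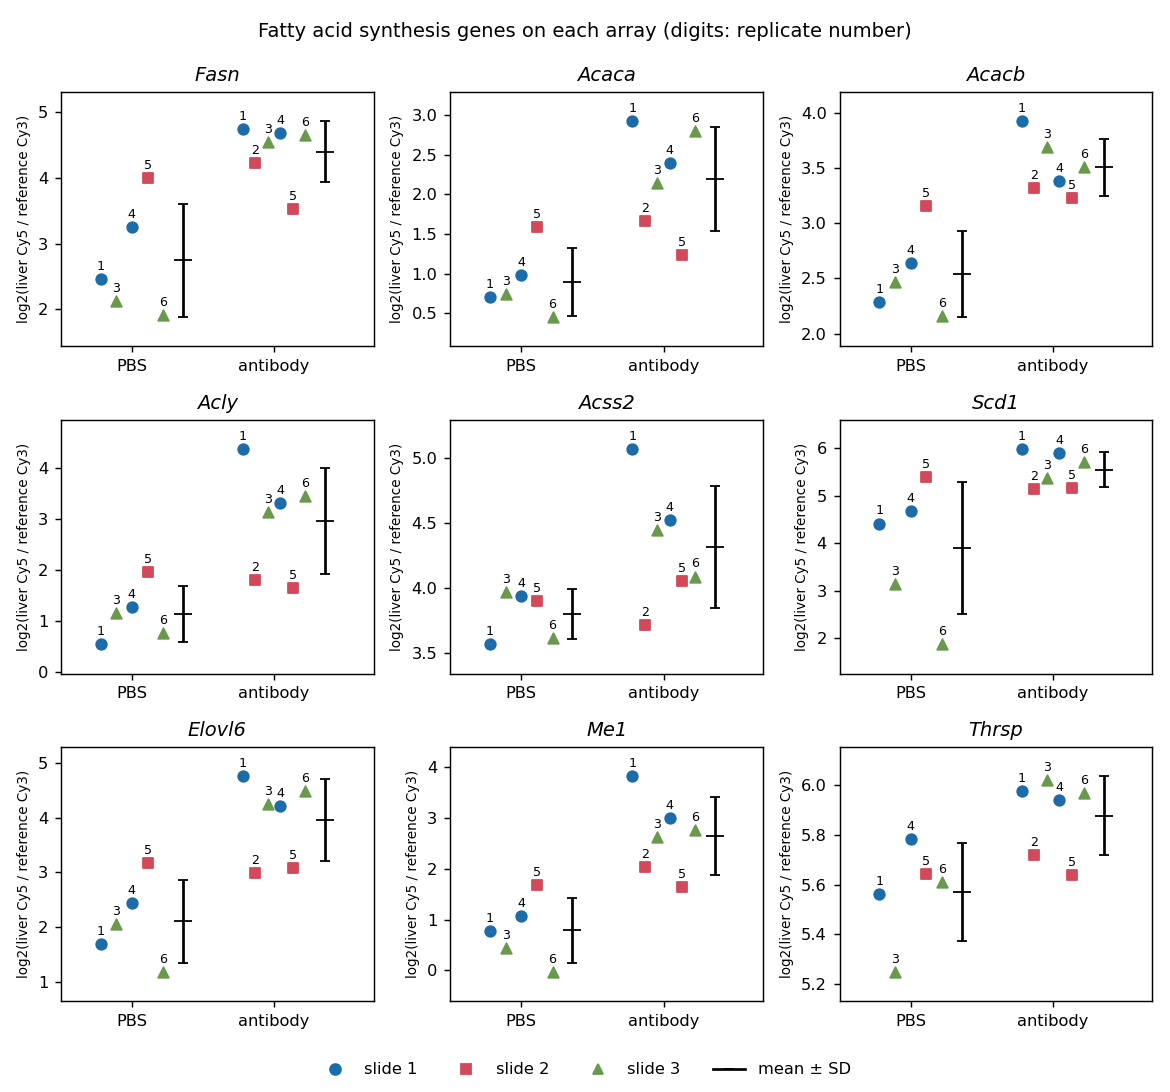
Log2 ratio of liver (Cy5) over reference (Cy3) of the 9 genes on each of the 5 PBS and 6 antibody arrays, with the replicate number beside each point, colour and shape for the slide, and black bars for the mean ± SD of a group. For Fasn, Acaca, Acacb, Acly, Scd1, Elovl6 and Me1 the highest PBS array was replicate 5, on slide 2, and for all 9 genes the lowest antibody array was replicate 2 or 5, also on slide 2.

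Acly, ATP citrate lyase, cleaves cytosolic citrate to acetyl-CoA and had one of the larger rises. On the log2 ratio scale PBS replicates 1, 3, 4, 5 and 6 were at 0.54, 1.17, 1.28, 1.97 and 0.77, and the antibody arrays ran from 1.65 through a median of 3.23 to 4.38. The antibody arrays spread over 2.74, the widest span of the members within that group, and 4 of 6 lay above the highest PBS array. The log2 difference was 1.82 ± 0.44 (SE), or 3.52-fold (limma adjusted p = 0.0182), and without PBS replicate 1 it no longer passed (1.67, limma adjusted p = 0.0519). The dimmer second probe, annotated to another transcript, gave 0.80 (limma adjusted p = 0.0506 over all probes).

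Acss2, which makes acetyl-CoA from acetate, did not pass. Its PBS values were 3.57, 3.97, 3.94, 3.90 and 3.62 in order of replicate number, and the antibody values ran from 3.71 through a median of 4.27 to 5.07. The log2 difference was 0.52 with a 95% confidence interval of 0.10 to 0.93 (limma adjusted p = 0.0900), and the second probe was at 0.42. Only antibody replicate 2 lay below the highest PBS array, and without that array the difference passed (0.64, limma adjusted p = 0.0360).

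Acaca and Acacb encode the acetyl-CoA carboxylases 1 and 2. The first is cytosolic and supplies malonyl-CoA for synthesis, and the second sits at mitochondria, where its malonyl-CoA restrains the entry of fatty acids for oxidation. Acaca was at 0.70, 0.74, 0.98, 1.58 and 0.46 on PBS replicates 1, 3, 4, 5 and 6, and at 1.23 (lowest), 2.27 (median) and 2.92 (highest) with antibody. PBS replicate 5 lay above antibody replicate 5 and below the other antibody arrays. The log2 difference of Acaca was 1.30 ± 0.29 (SE, limma adjusted p = 0.0138), a 2.46-fold rise. Its other probes were at 0.71 and 0.62 (limma adjusted p = 0.0610 and 0.0427 over all probes). Their mean brightness was 6.82 and 6.48 on the log2 scale, against 12.74. An offset of 50 added to both dyes draws ratios of dim spots toward 0, and its part in the lower values of these probes was not tested. With the mean of all kept probes the log2 difference of Acaca was 0.88 (limma adjusted p = 0.0268), under 2-fold.

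Acacb was at 2.29, 2.47, 2.64, 3.15 and 2.16 on the PBS arrays and at 3.23 (lowest), 3.44 (median) and 3.92 (highest) with antibody. It was the member whose groups did not overlap, with a gap of 0.08 between PBS replicate 5 and antibody replicate 5. The log2 difference was 0.97 ± 0.17 (SE, limma adjusted p = 0.00621), a 1.95-fold rise, and the second probe gave 0.96. The two-sided exact permutation p was 0.00216, the smallest these groups can give. The smallest adjusted p of the members was thus that of a gene with a rise under 2-fold, whose SD was 0.39 in PBS and 0.26 with antibody.

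Fasn, the fatty acid synthase that assembles palmitate, was at 2.46, 2.13, 3.25, 3.99 and 1.91 on PBS replicates 1, 3, 4, 5 and 6. With antibody it ran from 3.53 through a median of 4.60 to 4.74, and replicates 1, 3, 4 and 6 lay close together between 4.55 and 4.74. The PBS arrays spread over 2.08 on the log2 scale, or 4.21-fold, and the antibody arrays over 1.21. PBS replicate 5 lay above antibody replicate 5 only. The log2 difference was 1.65 ± 0.34 (SE, limma adjusted p = 0.0106), a 3.13-fold rise.

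Me1, the cytosolic malic enzyme that supplies NADPH to the synthase, was at 0.78, 0.44, 1.07, 1.67 and -0.028 in PBS and between 1.64 and 3.82 (median 2.70) with antibody. PBS replicate 5 lay just above antibody replicate 5 (-0.035 between the groups). The log2 difference was 1.86 ± 0.36 (SE, limma adjusted p = 0.00854). This was a 3.63-fold rise, and the other probes were at 1.84 and 1.49.

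Elovl6, which elongates palmitate to stearate, rose 3.59-fold (log2 difference 1.85 ± 0.38, SE, limma adjusted p = 0.0104). Its PBS values were 1.69, 2.06, 2.45, 3.18 and 1.19, and the antibody values ran from 2.99 through 4.22 to 4.75. Antibody replicates 2 and 5 lay below PBS replicate 5, and the other antibody arrays lay above it by more than 1 unit. Scd1, the liver's main stearoyl-CoA desaturase, was at 4.41, 3.13, 4.67, 5.38 and 1.87 in PBS, an 11.4-fold range, and between 5.14 and 5.98 (median 5.53) with antibody. PBS replicate 5 lay above antibody replicates 2, 3 and 5, and PBS replicate 6 stood lowest. The SD was 1.39 in PBS and 0.37 with antibody, and the log2 difference was 1.65 ± 0.49 (SE, limma adjusted p = 0.0409). That call was lost in 8 of 11 fits that each left out 1 array, and held without PBS replicate 4, PBS replicate 5 or antibody replicate 5. It was also lost with the scanner software's ratio (1.66, limma adjusted p = 0.0561) and with scaling between arrays (1.72, limma adjusted p = 0.0618).

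Thrsp, also called SPOT14 and known as a lipogenic gene induced by thyroid hormone, had the brightest probe of the members, with raw Cy5 signals from 81209 to 215080. Its log2 ratios were 5.56, 5.25, 5.78, 5.64 and 5.61 in PBS and ran from 5.64 through 5.95 to 6.02 with antibody. PBS replicate 4 lay above antibody replicates 2 and 5, and PBS replicate 3 stood lowest. The log2 difference was 0.31 with a 95% confidence interval of 0.10 to 0.52 (limma adjusted p = 0.0502). It passed with the Cy5 channel alone, at 0.92 (limma adjusted p = 0.00805), with slide as a block, at 0.33 (0.0358), and without PBS replicate 4 or antibody replicate 5, at 0.36 and 0.35 (limma adjusted p = 0.0412 and 0.0146).

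The reference dye differed between the groups for some members although the same pooled RNA was used on every array. With each dye normalised apart, the Cy3 signal was higher with antibody by 0.59 for Fasn, 0.51 for Thrsp and 0.46 for Scd1 on the log2 scale, and it differed by -0.17 to 0.16 for the other 6. Of these only Thrsp passed in Cy3 (limma adjusted p = 0.0359), where 1.52% of 15974 genes did. The Cy5 signal rose by 2.26 for Fasn, 2.14 for Scd1, 2.10 for Elovl6, 1.82 for Me1, 1.68 for Acly, 1.41 for Acaca, 1.17 for Acacb and 0.92 for Thrsp, and for Acss2 it was 0.60 (limma adjusted p = 0.0666). Thus 8 members passed in Cy5 alone, where 14.3% of genes did. The log2 ratio of Thrsp differed by 0.31, against 0.92 in its Cy5 signal. The part of the Cy3 differences in the results was not tested.

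**Figure D2:**
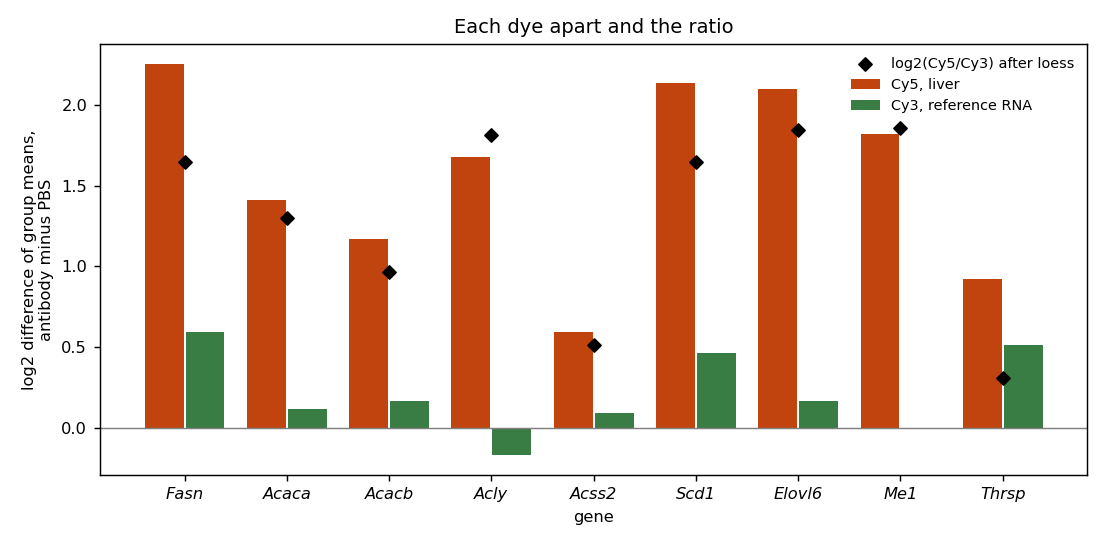
Difference of group means (antibody minus PBS, log2) in the liver dye Cy5 (orange bars) and in the reference dye Cy3 (green bars), each quantile normalised on its own, and in the loess-normalised ratio (black diamonds), for each of the 9 genes. Fasn, Scd1 and Thrsp have Cy3 bars of 0.59, 0.46 and 0.51, and for Thrsp the ratio stands at 0.31 against 0.92 in Cy5.

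The members stood higher with antibody on slides 1 and 3, and their differences on slide 2 were near 0. Within slide 1 the antibody minus PBS difference was positive for 9 of 9 genes, with a median of 1.81 (0.28 for Thrsp to 2.94 for Acly). Within slide 3 it was positive for 9 of 9, with a median of 2.33 (0.47 for Acss2 to 3.03 for Scd1). Within slide 2 it was positive for 3 of 9 (Acacb, Me1 and Thrsp), with a median of -0.11 and a range of -0.24 to 0.17. Slide 2 has a single PBS array, on which the median member stood 0.83 above its PBS mean, against -0.44 to 0.21 on the other PBS arrays. The antibody arrays of that slide stood at 0.78 and 0.69, and those of slides 1 and 3 at 1.47 to 2.03.

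Genes other than the members that rose in the same fit (1427) had a median within-slide difference of 0.41, 0.24 and 0.38 on slides 1, 2 and 3, and 95% of them were positive on slide 2. They were chosen by their rise over all arrays, slide 2 included, so a positive difference there is partly fixed by the choice. Over all genes the median was 0.015, 0.025 and 0.0085 on slides 1, 2 and 3. The difference between the effect on slide 2 and its mean on slides 1 and 3 was tested after the data were seen. It was negative for 9 of 9 members, from -2.88 ± 0.47 (SE) for Acly to -0.39 ± 0.18 for Thrsp, with unadjusted limma p-values of 0.000139 (Me1) to 0.0541 (Thrsp). No member passed over all genes (limma adjusted p = 0.195 to 0.575), and of 15969 genes 1 did and 8.90% had an unadjusted p under 0.05. Without the 3 arrays of slide 2, an alternative also chosen after the data were seen, all 9 members rose and the median was 2.21. That slide held the highest PBS array of 7 members and the lowest antibody array of all 9, so leaving it out widens the difference by its choice and gives no separate support. With slide as a block 8 of 9 rose. Over all 15974 genes 1744 rose with slide as a block and 1984 without slide 2, against 1434 in the main fit.

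**Figure D3:**
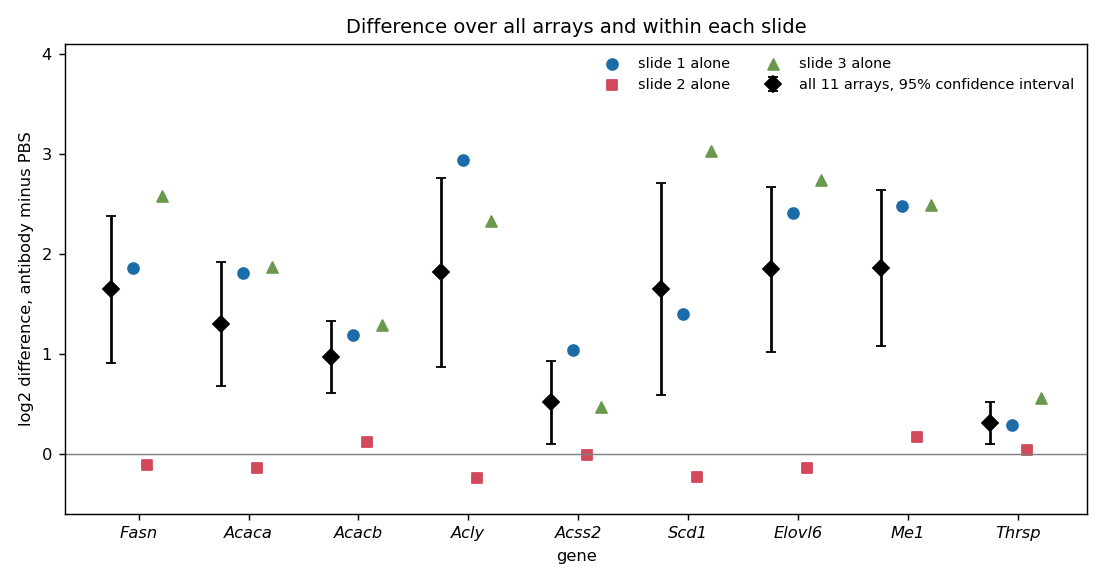
Log2 difference (antibody minus PBS) of each of the 9 genes over all 11 arrays, with its 95% confidence interval (black diamonds), and within each slide alone (coloured points, no interval). On slides 1 and 3 every gene lies above 0, and on slide 2 the points lie between -0.24 and 0.17.

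Lists of genes that feed and steer the pathway had median log2 differences of -0.0055 to 0.23, against 1.65 over the members. The shares to set beside the counts of each list were 8.98% risen and 5.66% fallen over all 15974 genes. Of 10 genes of citrate and acetyl-CoA supply 5 rose and none fell (median 0.23), led by the mitochondrial citrate carrier Slc25a1 (0.53 ± 0.11, SE) and pyruvate carboxylase Pcx (0.39 ± 0.11). Of 11 genes of NADPH supply 4 rose and none fell (median 0.11), led by the pentose phosphate enzymes Pgd (1.06 ± 0.20) and Tkt (0.92 ± 0.18). Both were near 0 within slide 2 (0.09 and 0.02) and between 1.22 and 1.49 within slides 1 and 3. Of 7 genes of mitochondrial fatty acid synthesis, a separate pathway that feeds lipoate formation, 2 rose (median 0.10), the acyl carrier protein Ndufab1 (0.34 ± 0.08) and the malonyl-CoA synthetase Acsf3 (0.20 ± 0.05).

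Among 13 genes of carboxylase control and malonyl-CoA removal 1 rose and none fell (median 0.025), where 8.98% of all genes rose and 5.66% fell. The riser was Prkag2, a regulatory subunit of the AMP-activated kinase that inhibits the carboxylases (0.30 ± 0.08). Mid1ip1, a relative of Thrsp that promotes carboxylase polymerisation, was at 0.63 ± 0.28 (limma adjusted p = 0.152), and was named after its value was seen. Of 20 measured genes of the elongation and desaturation cycle 6 rose and none fell (median 0.13). These were led by the desaturase Scd3 (1.60 ± 0.41) and the elongase Elovl5 (0.88 ± 0.17). Scd3 is a close paralog of Scd1, cross-hybridisation between their probes was not tested, and both values are uncertain for that reason. Of Scd3, the other kept probes were at -0.007 and 0.24. Of 10 genes of fatty acid activation 1 rose, the acyl-CoA synthetase Acsl5 (0.44 ± 0.12, median of the list 0.08).

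Of 16 transcription factors of lipogenesis and their regulators 2 rose and 2 fell (median -0.0055), where 8.98% of all genes rose and 5.66% fell. Srebf1, which encodes SREBP-1, rose by 0.57 ± 0.15 (SE, limma adjusted p = 0.0224), from 2.54 to 3.38 in PBS to 3.32 to 3.69 with antibody, with PBS replicate 5 the highest PBS array. Insig2, which holds SREBP in the endoplasmic reticulum, rose by 0.59 ± 0.16. The coactivator Ppargc1b and the E-box factor Usf2 fell by 0.51 and 0.21. The genes named from these lists as risen or fallen had limma adjusted p-values of 0.00825 (Pgd) to 0.0359 (Ppargc1b). Within slide 2 the named risen genes other than Pgd and Tkt were at -0.20 (Scd3) to 0.65 (Insig2), with Acsl5 and Pcx also below 0. Srebf1 and Elovl5 were at 0.12 and 0.10 there, Usf2 at -0.05 and Ppargc1b at -0.18. Mlxipl, which encodes ChREBP, had a value on 10 arrays and was at 0.17 (limma adjusted p = 0.0876), and it too was named after its value was seen. When 1 array was left out, the call held in 11 of 11 fits for Slc25a1, Pgd, Tkt, Ndufab1 and Elovl5, in 10 for Scd3, 8 for Srebf1, 7 for Acsl5 and Acsf3, 6 for Prkag2, 4 for Usf2 and Ppargc1b, 3 for Insig2 and 2 for Pcx. With median centring in place of loess the counts that rose and fell were 1 and 1 for citrate supply, 3 and 2 for NADPH supply, 0 and 3 for carboxylase control, 0 and 1 for mitochondrial synthesis, 2 and 2 for elongation and desaturation, 1 and 5 for the transcription factors, and 0 and 0 for activation. Of all 15974 genes 581 rose and 2145 fell in that setting.

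**Figure D4:**
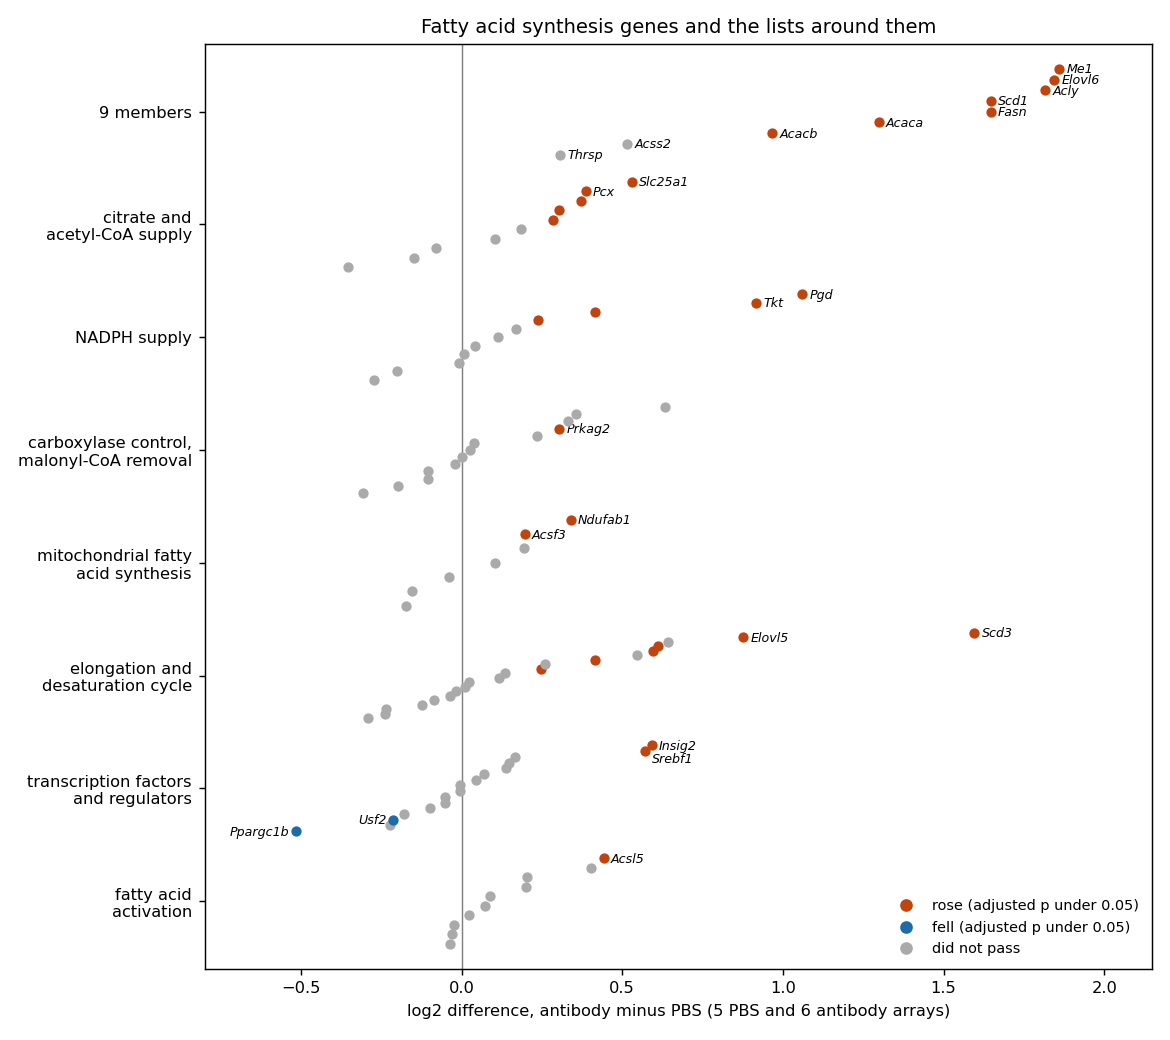
Log2 difference (antibody minus PBS) of the 9 genes and of the measured genes of 7 lists around them, one point per gene, orange where the gene rose, blue where it fell and grey where it did not pass, with the members and the leading genes of each list named. The 7 members that rose lie between 0.97 and 1.86, and among the lists Pgd and Scd3 exceed 1.

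The genes whose pattern over the 11 arrays lay nearest to the median member were Aacs, Gpam, Pklr, Tbc1d31 and Tubb2a, by root mean square distance of the differences from the PBS mean (0.27, 0.27, 0.27, 0.30 and 0.31 on the log2 scale). Acaca, which itself enters that median, was at 0.19, and Fasn, Elovl6 and Me1 were at 0.34, 0.37 and 0.39, and Thrsp was farthest of the members at 0.95. Aacs activates acetoacetate in the cytosol, Gpam starts glycerolipid assembly, Pklr is the liver pyruvate kinase and Tubb2a a beta tubulin. Their log2 differences were 1.60, 1.65, 1.39 and 1.55, and that of Tbc1d31, a TBC domain protein, 1.45 (0.50 on its second probe). The scanner software's ratio gave 0.63 for Pklr. Within slide 2 they were at 0.02 (Aacs), 0.28 (Gpam), -0.08 (Pklr), -0.22 (Tbc1d31) and 0.73 (Tubb2a). These 5 genes were chosen for their nearness to the members, so differences like those of the members are partly fixed by the choice.

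Adipocytes also express most of these 9 genes, so markers of adipocytes and of other liver cells were examined. Of 9 measured adipocyte markers 3 rose (Cidec, Adig and Pparg), 1 fell (Lipe) and 5 did not pass, with a summed Cy5 signal of 12.81 to 13.08 (log2) in PBS and 12.82 to 14.50 with antibody. Cidec, also made by fatty hepatocytes, had a log2 difference of 2.21, which turned to -0.24 when taken from the scanner software's ratio. Adig was at 0.81, Pparg at 0.32 and Lipe at -0.30. The second probes of Adig and Cidec were at 0.08 and 1.62. The adipocyte markers that did not pass are named here after their values were seen. Cfd had a mean log2 ratio of 0.51 in PBS and 1.51 with antibody (limma adjusted p = 0.0529, raw Cy5 signals of 42.5 to 300.0). Log2 differences were 0.45 for Fabp4 (limma adjusted p = 0.0681, raw 3838.5 to 7498), 0.16 for Retn (raw 104 to 257), 0.04 for Plin1 (raw 36 to 49) and -0.21 for Adipoq (raw 39.5 to 78), against a local background of 26 to 27. Lep was not well above background on any array. Of 10 stellate cell and fibroblast markers 5 rose, led by Col1a1 at 1.57, with a summed Cy5 signal of 14.88 to 15.02 in PBS and 15.03 to 15.69 with antibody, and Col1a1 was at 1.06 within slide 2. In the remaining lists 2 of 9 Kupffer cell and macrophage, 2 of 10 endothelial and 3 of 6 erythroid markers rose, 1 of 4 neutrophil markers fell, and none of 8 cholangiocyte, 10 lymphocyte and 4 pancreatic acinar markers passed, where 8.98% of all genes rose and 5.66% fell. These counts moved with the processing. Over 8 alternatives the number that rose was 1 to 5 for adipocyte, 2 to 7 for stellate, 0 to 4 for Kupffer cell, 0 to 3 for endothelial and 2 to 5 for erythroid markers, the last being 5 of 6 with Cy5 alone. With median centring it was 3, 3, 1, 0 and 2 in that order. Of all 15974 genes, 581 (median centring) to 1984 (without slide 2) rose over the same alternatives. The highest adipocyte, stellate and Kupffer cell counts came with slide as a block, where 1744 genes rose. The part of these cells in the results was not tested.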

How the data were processed

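RNA was extracted on silica columns with DNase treatment and labelled as cRNA, per the labels' protocols. Agilent Feature Extraction read the spots, in version 11.5.1.1 per the file headers and 11 in the submitters' processing notes. In the scanner files the authors deposited each spot has a median intensity in both dyes and of its local background, on a linear scale, quality flags, and the software's background-subtracted, dye-normalised log10 ratio. A deposited table holds the authors' log2 ratios per probe, and the sources used here do not give how it was made. These ran as Cy5 over Cy3 with column medians from -0.00277 to 0.00809, lay within a median of 0.0041 of those computed here on every array, and served as an alternative.

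Sample titles gave the group and the replicate number. With limma 3.58.1 in R 4.3.3, signals were corrected by normexp (offset 50) and loess within each array. Uneven spots were left out and spots of a probe averaged. Probes were named through RefSeq accessions (GRCm38.p6), which named 26581 of 39429 probes. Probes whose Cy5 was well above background on 5 or more of the 11 arrays were kept, and the brightest kept probe stood for its gene. Groups were compared with lmFit and eBayes, with Benjamini-Hochberg adjustment over 15974 genes and a threshold of 0.05. The script was tested on simulated data.

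The members, lists and alternatives were chosen with earlier results of these data known. The named genes were the 9 members, the 2 largest rises and falls of each list past the threshold (or else the smallest p), the 5 genes nearest in pattern, and the most changed or undetected markers, and exceptions are marked where they occur. Alternatives were other normalisations and filters, the mean of all probes, slide and replicate number as blocks, and leaving out each array. Samples within a group correlated at 0.973 to 0.993 and no pair was treated as a duplicate.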

Additional observations from a re-analysis of the deposited data

How the results depend on the processing

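All 9 members had a positive log2 difference in all 12 alternatives and whichever of the 11 arrays was left out. Acacb, Elovl6 and Me1 passed in all of these. The alternatives that ended or made a call of another member follow. Scd1 was at 1.66 with the scanner software's ratio and at 1.72 with scaling between arrays, and did not pass. Thrsp passed at 0.92 with Cy5 alone, at 0.31 when only genes well above background on all arrays were tested, at 0.33 with slide as a block, and at 0.42 without slide 2, where Acss2 also passed (0.76) and the median member was at 2.21. Each slide was 1 scan, so a scan block is the slide block.

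Replicate numbers were shared by the groups, and samples of the same number lay on the same slide. Their deviations from their group means correlated at -0.13 to 0.14, and no sample correlated best with its own number. Whether same-numbered samples share more than a number and a slide is not stated, and these correlations cannot settle it. The replicate block could use only the 10 arrays of the 5 shared numbers, without antibody replicate 2. It called 3 members and 1046 genes, against 7 and 1812 in the fit of these arrays with no block. Fasn (1.68), Acaca (1.40), Acly (2.05) and Acss2 (0.64) passed there with no block and not with it (limma adjusted p = 0.0533, 0.0533, 0.0506 and 0.0611). Scd1 (1.73) passed in neither (limma adjusted p = 0.0557 with no block, 0.0655 with it).

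With 1 array left out, between 5 and 8 members rose, the fewest without PBS replicate 1. The median member was at 1.19 to 1.96, Fasn at 1.44 to 1.96, Acaca at 1.15 to 1.49, Acacb at 0.87 to 1.12, Acly at 1.53 to 2.08, Acss2 at 0.36 to 0.64, Scd1 at 1.14 to 2.02, Elovl6 at 1.61 to 2.11, Me1 at 1.63 to 2.08 and Thrsp at 0.23 to 0.36. Genes changed numbered 1240 to 3868: 1240, 1422 and 1533 without PBS replicate 1, 3 or 4, 1398 without antibody replicate 4 and 3868 without antibody replicate 5. The arrangement without slide 2 was chosen after seeing the data. The causes were not tested.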
